A study of Bombyx mori with 3 samples.

Results

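Silk glands (SGs) of the silkworm Bombyx mori were compared at 2 stages at which the animals do not feed, the late embryo (E8D) and the first larval molt (1LM). The comparison used every barcode of the E8D and 1LM libraries with at most 30% of its UMIs (unique molecular identifiers, 1 per captured transcript) from the mitochondrial genome and with a ratio of UMIs to detected genes within 2 SD of the mean of its library. These rules kept 4880 of the 5351 barcodes deposited at E8D and 7125 of 7513 at 1LM. The 12005 cells compared are part of the 16344 that the same rules left over the 3 libraries of the series. UMIs were summed per gene over the cells of a library and scaled to counts per 1000000 UMIs of the library (CPM), and the 6810 of 16880 genes that reached 100 UMIs at one stage or both were compared.

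Both libraries came from the Nistari strain. Intact glands with their anterior (ASG), middle (MSG) and posterior (PSG) regions were pooled, about 2000 glands a library, and dissociated for 10x Genomics 3′ single-cell RNA-seq. E8D glands were from embryos 8 days after egg laying and 1LM glands from larvae molting out of instar 1. The third library of the series, 1L1D, was from feeding larvae on day 1 of that instar and is given only as a value beside the others. Each stage was 1 library, so there was no replicate and no test, and stage and library cannot be told apart. Intervals are exact 95% intervals for counting error only (binomial for ratios, Poisson for CPM, Clopper-Pearson for shares of cells), and where no cell had a UMI, the limit given is 3 cells of the total.

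The SG is a pair of ectodermal tubes that derive from the embryonic labial segment. PSG cells secrete the fibroin chains that form the silk filament, MSG cells secrete the sericins that coat it, and the ASG is a duct lined by a cuticular intima. At each molt an insect separates its old cuticle, builds a new one of chitin and cuticular proteins underneath and sheds the old one, under pulses of the steroid 20-hydroxyecdysone, and the lining of ectodermal ducts is renewed with it. SG cells do not divide after embryogenesis and grow by endoreplication.

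Kept cells held 6878383 UMIs at E8D and 13120838 at 1LM, with a median of 738 and 1465 UMIs and 268 and 682 genes per cell. After every cell was thinned to 1000 UMIs, which left out 3418 E8D and 1743 1LM cells, the median was 351 genes at E8D and 526 at 1LM. The libraries shared 10 barcodes as deposited and 8 after filtering. The cell just inside the limit on the ratio of UMIs to genes was at 7.21 at E8D and 4.32 at 1LM, and the barcode just outside it at 7.24 and 4.32. The 3 most abundant genes took 23.4% of the UMIs at E8D and 5.77% at 1LM. The silk genes served as a check of the tissue, with fibroin light chain (Fib-l) at 2918 CPM at E8D and 10589 CPM at 1LM. At E8D this check rested mainly on Fib-l. Fibroin heavy chain (FIBH) was at 168 CPM there and LOC101740082 (sericin 1-like) at 74.4 CPM, and the other silk genes were lower still. Among 26 markers of other tissues, 13 had 0 UMIs at E8D and 6 at 1LM. Over the 6 marker lists (muscle, neurons, fat body and haemolymph, gut, immune peptides and hatching enzymes), the summed level ranged from 0 to 728 CPM at E8D and from 0.381 to 207 CPM at 1LM, and was 43.6 and 141 CPM for muscle. Their part in the results was not tested.

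Of the 6810 genes, 3232 (47.5%) were at least 2-fold higher at 1LM in CPM and 363 (5.33%) at least 2-fold lower. The median gene was itself higher at 1LM, at a log2 ratio of 0.91, with an interquartile range of 0.09 to 2.02. Relative to that median gene, 1829 genes (26.9%) were at least 2-fold higher and 1369 (20.1%) lower, and the split was 1951 against 1219 with edgeR's TMM factors and 1883 against 1300 with DESeq2's size factors. Without LOC101745332, LOC101745133 and LOC101745164, abundant at E8D only, in the library totals, it was 2572 against 638. The direction of any gene with a ratio between 0 and the median therefore depended on the scaling, and ratios below are of CPM unless stated. Of all genes compared, 2952 passed the minimum of 100 UMIs only through 1LM and 87 only through E8D, and those far from the minimum in the other library had to differ. Because the 1LM library held more UMIs, this minimum was 7.62 CPM at 1LM and 14.5 CPM at E8D, so it was easier to pass through 1LM. Among the 3771 genes with 100 UMIs in both libraries, 977 were higher and 276 lower, with a median of 0.32. Differences of at least 16-fold were found for 596 genes higher and 52 lower at 1LM. Counts in gene lists below are to be read beside the shares of all genes, 47.5% higher and 5.33% lower.

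**Figure D1:**
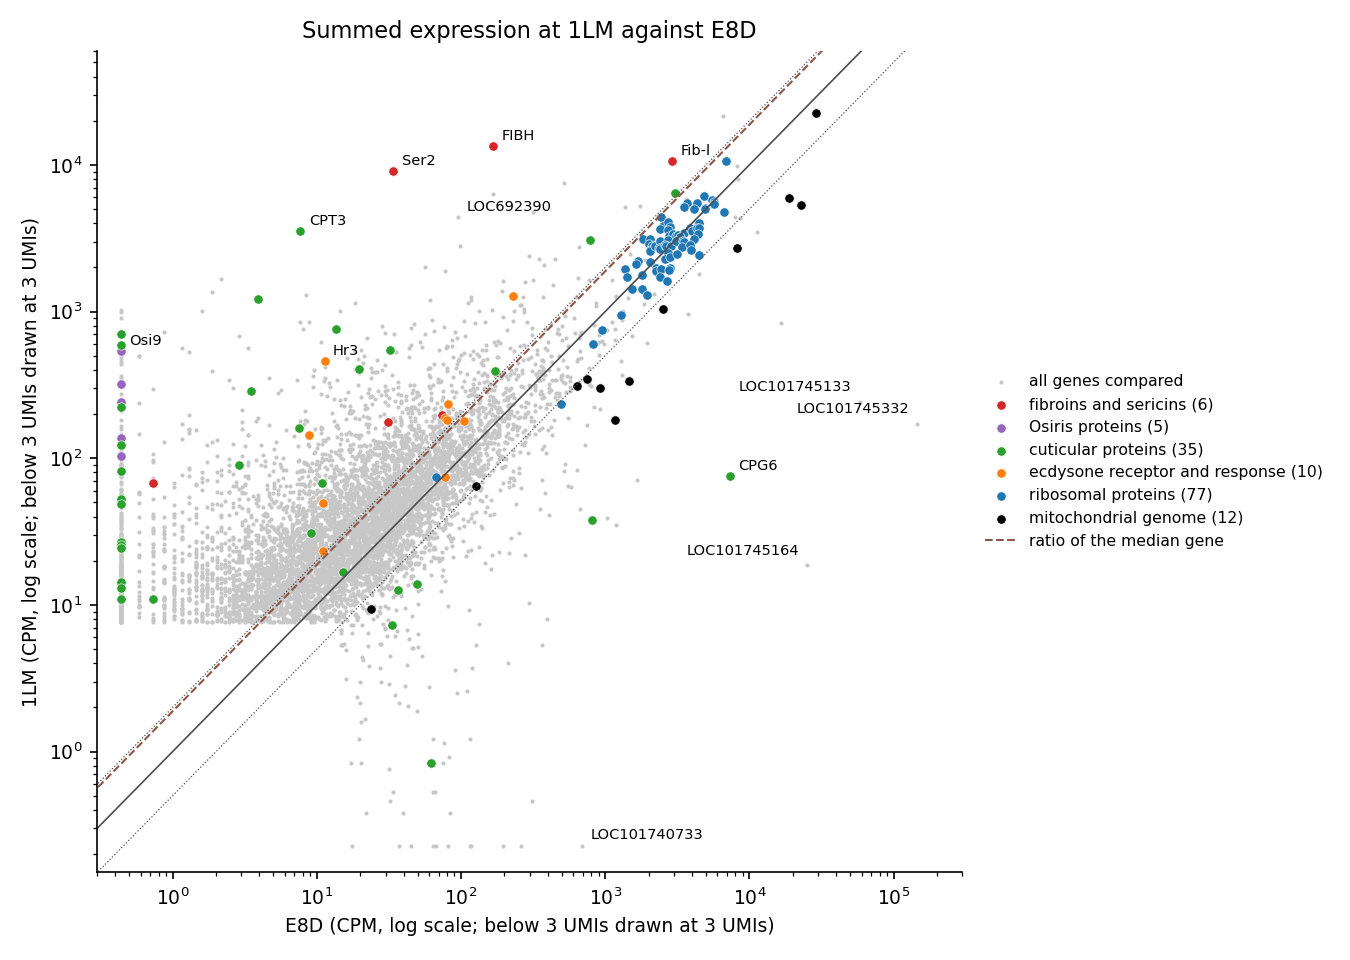
Each point is 1 of the 6810 genes, with its CPM at E8D on the x axis and at 1LM on the y axis, both on log scales, and counts below 3 UMIs drawn at 3 UMIs. The solid line is equality, the dotted lines are 2-fold and the dashed line is the ratio of the median gene (log2 0.91). Ribosomal proteins lie along equality, genes of the mitochondrial genome below it, and Osiris proteins at the left edge, with 0 UMIs at E8D.

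At E8D, 3 genes held 22.99% of all UMIs, and they held 0.0434% at 1LM. The uncharacterized gene LOC101745332 had 1005790 UMIs in E8D cells, 1528 in 1L1D cells and 2263 in 1LM cells, which is 146225 CPM at E8D and 172 CPM at 1LM (log2 ratio -9.73, interval -9.79 to -9.67). The annotated long non-coding RNAs LOC101745133 and LOC101745164 were lower at 1LM as well. LOC101745133 was at 58485 CPM at E8D and 242 CPM at 1LM (log2 ratio -7.91, interval -7.97 to -7.86). LOC101745164 was at 25212 CPM at E8D and 18.6 CPM at 1LM (log2 ratio -10.405, interval -10.59 to -10.22). In cells thinned to 1000 UMIs, LOC101745332 had a UMI in 99.6% of 1462 cells at E8D and 13.9% of 5382 cells at 1LM. The barcodes removed by the filters held them as well, with 17.7% of their UMIs from LOC101745332 at E8D. LOC101745332 is one of the study's leading markers of the PSG type FPS. The levels of these 3 RNAs in cells with markers of other types were not measured, so the part of RNA released from other cells was not tested for them.

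These 3 genes lie near each other. In the gene order of the later RefSeq assembly ASM3026992v2, used only for neighborhood because the counts were made on ASM15162v1, they fall within 6 consecutive genes. Of the other genes in between, LOC110385293 alone is in the tables, with 3 UMIs at E8D and 5 at 1LM. Further genes that were lower at 1LM were neighbors. LOC101736569 (xanthine dehydrogenase 1), LOC101738479 (xanthine dehydrogenase 2-like) and CPG6 fall within 4 genes, and LOC101740318 (synaptic vesicle glycoprotein 2B) is adjacent to LOC101745610 (carbonic anhydrase 2). Of 43 nuclear genes with the most extreme ratios or CPM changes, 37 had a place in that order, beside 13109 genes of the tables. Among these 37, 16 fell into 6 such runs, where neighbors were at most 20 genes apart. How many runs 37 genes drawn without regard to their ratios would form was not computed.

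**Figure D2:**
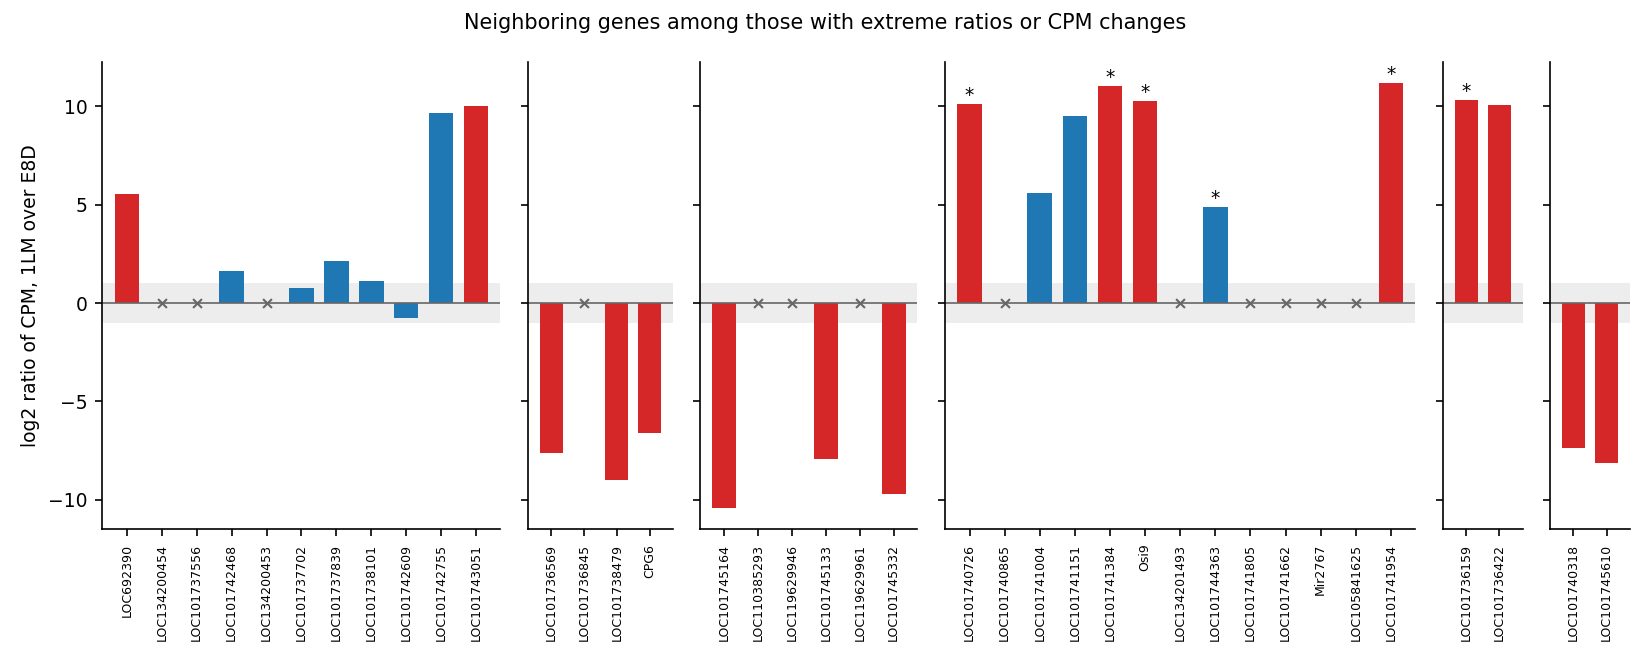
Bars give the log2 ratio of CPM, 1LM over E8D, of genes in the 6 runs, each panel 1 run in gene order. Red bars are the 16 genes with extreme ratios or CPM changes, blue bars other genes compared, crosses genes not compared, and asterisks mark 0 UMIs in one library, where the bar is a bound at 3 UMIs. Runs hold bars of 1 direction, except for one small negative bar in the first panel.

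Further genes were detected almost only at E8D. LOC101740733, annotated as protein PXR1, had 4752 UMIs in E8D cells (691 CPM), 3 at 1L1D and 0 at 1LM, at least 3022-fold lower. Uncharacterized LOC101743112 had 1781 UMIs at E8D and 0 at 1LM, at least 1132-fold lower. LOC105842474 had 1355 UMIs at E8D and 1 at 1LM (log2 ratio -11.34, interval -16.64 to -8.86). Enzymes were among the lowest ratios too. Xanthine dehydrogenase makes uric acid in purine breakdown, and LOC101738479 had 806 UMIs at E8D and 3 at 1LM (log2 ratio -9.001, interval -11.28 to -7.45). Its neighbor LOC101736569 had 309 UMIs at E8D and 2 at 1LM (log2 ratio -8.203, interval -11.26 to -6.34). LOC101742223, a lactase-phlorizin hydrolase, the group of enzymes that split β-glycosides, had 789 and 2 UMIs (log2 ratio -9.56, interval -12.604 to -7.698). Carbonic anhydrase 2 interconverts carbon dioxide and bicarbonate, and LOC101745610 had 443 UMIs at E8D and 1 at 1LM (log2 ratio -9.72, interval -15.03 to -7.24). Of the protease inhibitors, LOC110386924 (trypsin inhibitor-like) had 2130 UMIs at E8D and 6 at 1LM (log2 ratio -9.403, interval -10.85 to -8.28). All of these were already under 4 CPM at 1L1D.

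One gene of this set was confined to few cells. LOC101743853 had 563 UMIs at E8D, all of them in 8 of 4880 cells (0.164%, interval 0.0708% to 0.323%), and 3 UMIs at 1LM. In contrast, LOC101740733 had a UMI in 30.2% of all E8D cells and in 0 of 7125 at 1LM, which allows a share of up to 0.0421% of cells with a UMI (3 cells of the total). Fewer cells of a type and less RNA per cell cannot be told apart in the summed values.

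Every silk protein gene that was compared was higher at 1LM in CPM. Of 7 fibroin and sericin genes in the tables, 6 were compared and 6 were at least 2-fold higher, beside 47.5% of all genes. Of these, 5 had 100 UMIs in both libraries, and the median log2 ratio was 4.401, beside 0.91 for all genes. Relative to the median gene 4 of the 6 were higher, and Fib-l and LOC101740082 were within 2-fold. Together the 7 genes made up 0.323% of all UMIs at E8D and 3.35% at 1LM, with 5.78% at 1L1D. The fibroin heavy chain gene FIBH, the main filament protein, was at 168 CPM at E8D, 37043 CPM at 1L1D and 13432 CPM at 1LM (log2 ratio 6.32, interval 6.24 to 6.41 for 1LM over E8D). A second row for this gene, FIBH-2, had 5 and 896 UMIs (log2 ratio 6.55, interval 5.33 to 8.18), and reads of one gene may be split over both rows.

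The fibroin partners differed in when they were already present. Fib-l, which is disulfide-linked to the heavy chain, was at 2918 CPM at E8D and 10589 CPM at 1LM (log2 ratio 1.86, interval 1.84 to 1.88). P25, the glycoprotein of the fibroin unit, was at 31.4 CPM at E8D and 175 CPM at 1LM (log2 ratio 2.48, interval 2.28 to 2.69). With 3′ counting these levels are not divided by length. Sericins also diverged. Ser2 was at 33.9 CPM at E8D, 2313 CPM at 1L1D and 9038 CPM at 1LM (log2 ratio 8.06, interval 7.87 to 8.25), the highest of the 3 stages. LOC101740082 (sericin 1-like) was at 74.4 CPM at E8D, 709 CPM at 1L1D and 196 CPM at 1LM (log2 ratio 1.398, interval 1.26 to 1.54). Ser3 had 1, 54 and 0 UMIs in stage order, and no ratio was formed.

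Fibroin RNA was also counted in cells that carried ASG markers, where it should be lacking. Among 1LM cells with a UMI of at least 2 of the study's 5 leading markers of the ASG type ECR (842 cells, median 1942 UMIs), 100% had a FIBH UMI, at 5521 CPM, against 100% and 14787 CPM in the 6283 other cells (median 1376 UMIs). At E8D, 4.902% of 204 cells with at least 2 markers of the ASG type LSF (median 1232 UMIs) had a FIBH UMI, at 39.5 CPM, against 7.998% of the others (median 732 UMIs). The share of 1LM cells with a FIBH UMI was thus as high in ECR-marker cells as in the others and is not read as a share of cells that express it. Doublets were not called, and the part of free RNA in the summed CPM was not tested. At 1LM, 99.9% of ECR-marker cells had a Fib-l UMI (4776 CPM, against 11584 CPM in the others) and 99.4% a Ser2 UMI (4655 against 9789 CPM). P25 was found in 14.1% of them and LOC101740082 in 17.1%. The paper reports Ser2 in ECR cells. At E8D, 37.7% of LSF-marker cells had a Fib-l UMI, at 298 CPM, against 60.4% and 3244 CPM in the others. Genes other than the silk genes were not counted in such cells, so their shares of cells with a UMI carry no such check.

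**Figure D3:**
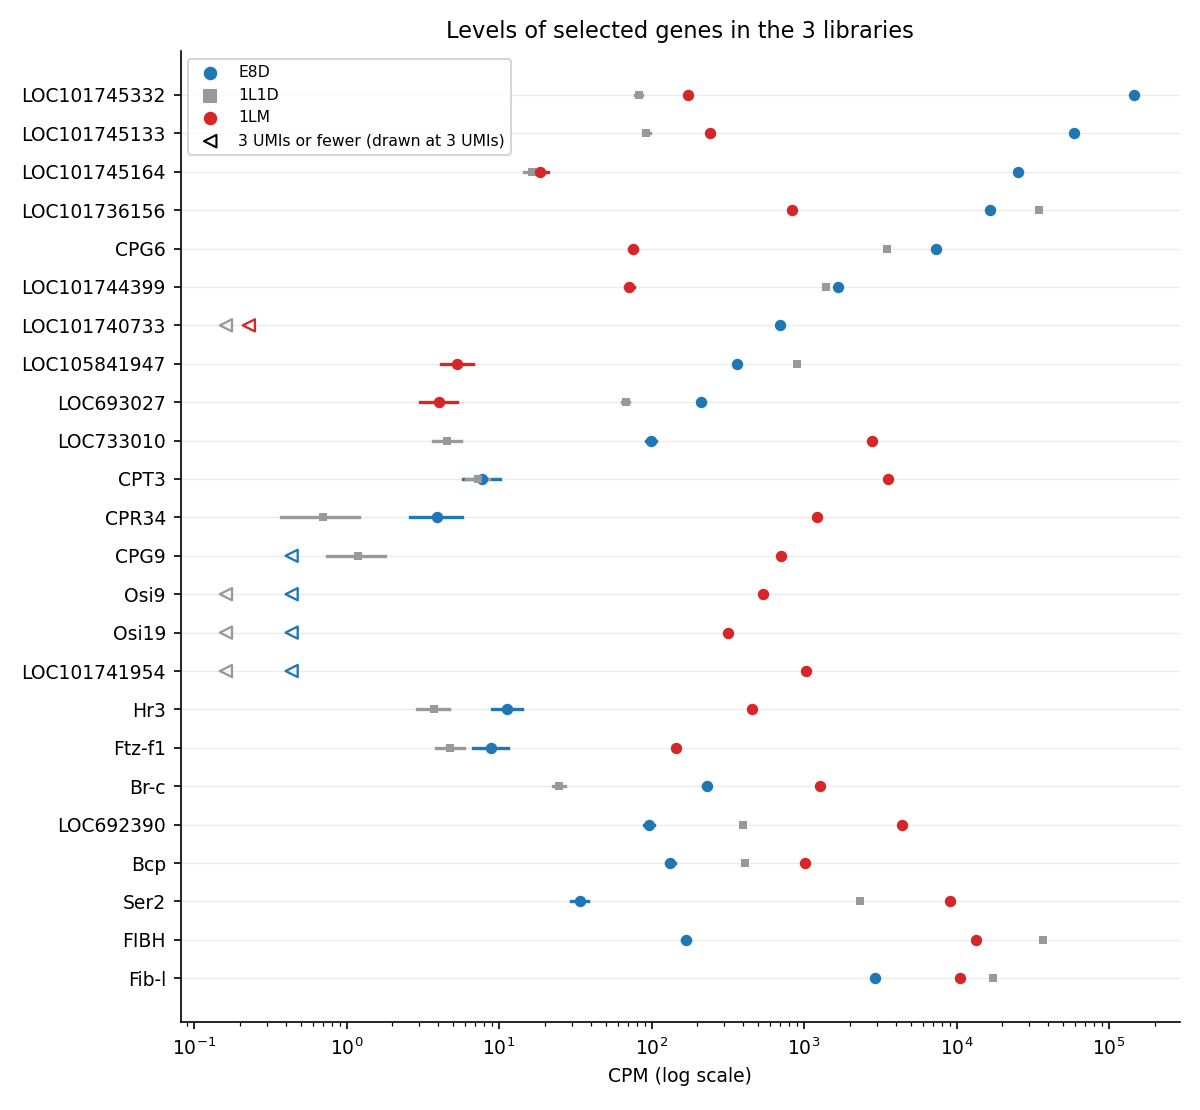
Points give the CPM (log scale) of 24 genes summed over the kept cells of E8D (blue), 1L1D (gray) and 1LM (red). Horizontal bars are exact Poisson intervals for counting error, mostly narrower than the points, and open triangles mark 3 UMIs or fewer, drawn at 3 UMIs. The genes of the upper rows are highest at E8D or 1L1D, and those from LOC733010 downwards are higher at 1LM than at E8D.

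Cuticular protein genes differed in both directions. Of 192 in 5 families, 74 had no UMI at either stage and 35 were compared, of which 28 were at least 2-fold higher at 1LM and 6 lower, at a median log2 ratio of 4.901 beside 0.91 for all genes. Most of these, 23, passed through 1LM only, 9 of them with 0 UMIs at E8D, and of the 10 with 100 UMIs in both libraries 5 were higher and 4 lower. Their summed level was 12507 CPM at E8D and 19224 CPM at 1LM, with 31988 CPM at 1L1D, and the genes that made up this sum differed between the stages.

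Among the genes that were higher, CPH43, a hypothetical cuticular protein, was at 3070.1 CPM at E8D, 759 CPM at 1L1D and 6434 CPM at 1LM (log2 ratio 1.07, interval 1.05 to 1.09), within 2-fold relative to the median gene. In the Tweedle family, named for body shape mutants in Drosophila, ratios were larger. CPT3 had 53 UMIs at E8D and 46457 at 1LM, from 7.71 to 3541 CPM (log2 ratio 8.84, interval 8.46 to 9.26), and a UMI in 0.547% and 78.6% of thinned cells. CPT2 had 0 and 2925 UMIs, at least 511-fold higher. Members with the Rebers and Riddiford chitin-binding motif followed. The RR-1 gene CPR34 had 27 and 16067 UMIs, the latter being 1225 CPM (log2 ratio 8.29, interval 7.74 to 8.89). The RR-2 gene CPR128 had 0 and 7714 UMIs, at least 1348-fold higher. RR-2 genes were higher in 9 of 9 compared (median 4.41), 7 of them through 1LM only, and RR-1 genes in 3 of 6, with 3 lower. CPR90 was the RR-2 gene already abundant at E8D, at 788 CPM, and was at 9301 CPM at 1L1D and 3051 CPM at 1LM (log2 ratio 1.95, interval 1.91 to 1.99). The glycine-rich gene CPG9 had 0 and 9232 UMIs, at least 1613-fold higher. Hypothetical cuticular genes were higher in 8 of 10 compared and lower in 2, with CPH28 from 13.7 to 762 CPM (log2 ratio 5.801, interval 5.51 to 6.11). However, 5 of the 10 passed the UMI minimum through 1LM only. Of the 5 that reached it in both libraries, 3 were higher and 2 lower. Relative to the median gene, 6 of the 10 were higher and 2 lower.

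Other cuticular genes were lower at 1LM. CPG6 was at 7334 CPM at E8D, 3504 CPM at 1L1D and 75.9 CPM at 1LM (log2 ratio -6.59, interval -6.69 to -6.504). LOC101736156, annotated as cuticle protein 6.4 and outside the 5 families, was at 16572 CPM at E8D, 34945 CPM at 1L1D and 832 CPM at 1LM (log2 ratio -4.32, interval -4.34 to -4.29). CPH4 was at 805 and 38.03 CPM (log2 ratio -4.404, interval -4.54 to -4.27). The RR-1 gene CPR24 differed from these in being low at 1L1D already, at 61.5 CPM at E8D, 0.216 CPM at 1L1D and 0.838 CPM at 1LM (log2 ratio -6.197, interval -7.21 to -5.34). CPR55 had 227, 6 and 96 UMIs in the 3 libraries in stage order (log2 ratio -2.17, interval -2.53 to -1.82 for 1LM over E8D). The RNA of these genes was spread unequally over cells of different depth at E8D. The 5% of E8D cells with the most UMIs held 34.3% of all UMIs, 60.97% of those of CPG6, 63.9% of LOC101736156, 60.2% of CPH4, 59.03% of CPR55 and 38.3% of CPR24.

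Osiris genes, an insect-specific family that in Drosophila is expressed in cells that form cuticle, were not detected at E8D. All 5 that were compared of the 6 in the tables had 0 UMIs there in 4880 cells, which allows up to 0.0615% of cells with a UMI (3 cells of the total). Osi9 had 7010 UMIs at 1LM (534 CPM, at least 1225-fold higher) and Osi19 had 4191 (319 CPM, at least 732-fold higher). Osi18, Osi20 and Osi7 had 3166, 1811 and 1350 UMIs at 1LM. At 1L1D the 5 genes had between 0 and 4 UMIs. Of thinned 1LM cells, 13.9% had a UMI of Osi9 and 3.47% of Osi7.

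Uncharacterized genes beside Osi9 were also detected mainly at 1LM. The run from LOC101740726 to LOC101741954 spans 13 genes with Osi9 in it, and 7 of the 12 in the tables were compared. These 7 passed the UMI minimum through 1LM only, and 5 of them had 0 UMIs at E8D. None had more than 13 UMIs at E8D (1.89 CPM), and at that level a gene could pass only by being higher at 1LM. The other 5 had between 0 and 7 UMIs at 1LM. LOC101741954 had 0, 3 and 13533 UMIs at E8D, 1L1D and 1LM (1031 CPM, at least 2365-fold higher), with a UMI in 48.4% of thinned 1LM cells. LOC101741384 had 0, 0 and 11917 UMIs, at least 2082-fold higher. LOC101741151, which is in the run but outside the naming rule and was singled out after its values were seen, had 13 UMIs at E8D and 17906 at 1LM. Elsewhere, the uncharacterized LOC101746589 had 3 UMIs at E8D and 12935 at 1LM (log2 ratio 11.14, interval 9.59 to 13.42), and LOC101746349 had 1 and 8007 (log2 ratio 12.04, interval 9.56 to 17.34).

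Genes that build and break down chitin, the polysaccharide of the cuticle, were mostly higher at 1LM among those compared. Of 8 for synthesis and binding, 6 were higher and 0 lower (median 4.397), but 5 of the 8 passed through 1LM only, and of the other 3 there were 2 higher. Of 10 for breakdown 7 were compared and 7 were higher (median 3.65). LOC733010 (gasp), a chitin-binding secreted protein, was at 98.9 CPM at E8D, 4.58 CPM at 1L1D and 2799 CPM at 1LM (log2 ratio 4.82, interval 4.71 to 4.93). LOC101739926, one of 6 genes annotated as obstructor-E, which organizes cuticle in Drosophila, had 1 UMI at E8D and 4373 at 1LM (log2 ratio 11.16, interval 8.68 to 16.47). A second, LOC101743739, was at 236 CPM at E8D and 167 CPM at 1LM (log2 ratio -0.501, interval -0.59 to -0.41), which was under the 2-fold limit. Chi, a chitinase, had 1 and 301 UMIs (log2 ratio 7.302, interval 4.81 to 12.61), and ChiR1, a chitinase-related protein, had 56 and 1209 (log2 ratio 3.501, interval 3.11 to 3.91). Counts for chitin breakdown rested on low E8D levels, since 6 of 7 passed through 1LM only.

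Genes of cuticle tanning split. Laccase-2 (LOC101736241), which oxidizes catechols to harden and darken cuticle, had 4, 46 and 754 UMIs in stage order (log2 ratio 6.63, interval 5.26 to 8.51). In the yellow family of pigmentation proteins, Y-y had 0 and 1023 UMIs, at least 179-fold higher. Y-b was lower, at 41.1 and 2.82 CPM (log2 ratio -3.87, interval -4.403 to -3.37), and so was Y-d, at 185 and 60.4 CPM (log2 ratio -1.62, interval -1.75 to -1.49). In all, 4 of the 7 genes compared were higher and 2 lower, and 4 passed through 1LM only and 1 through E8D only.

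**Figure D4:**
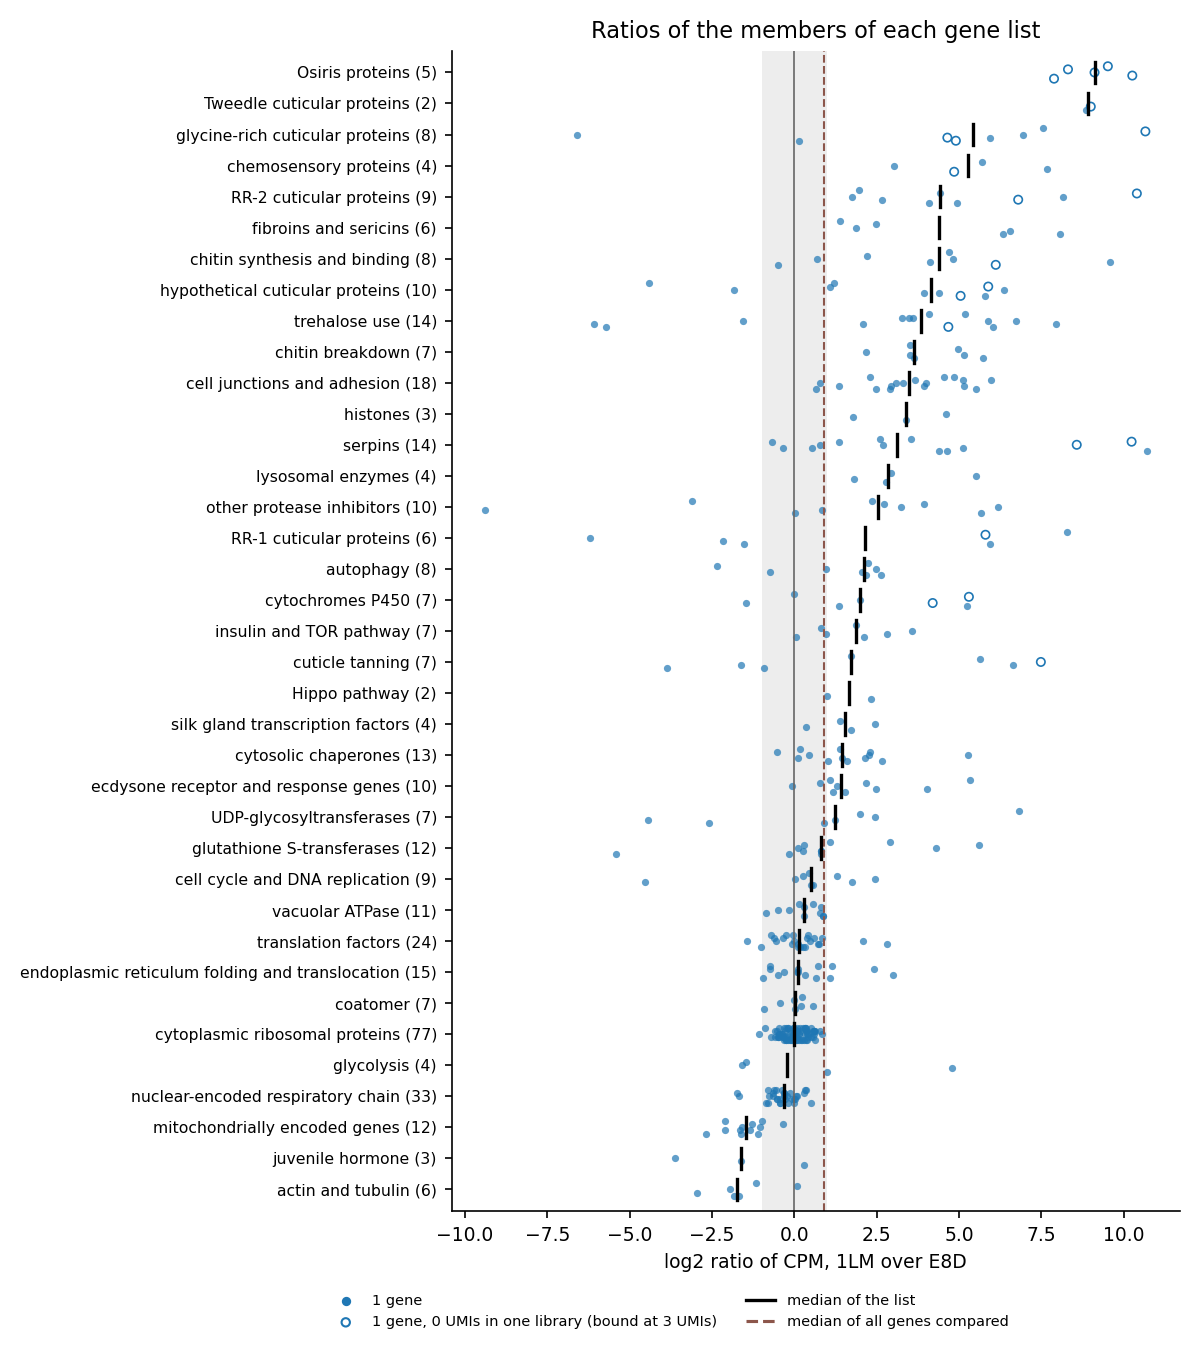
Each point is the log2 ratio of CPM, 1LM over E8D, of 1 gene, with the number of genes compared in each list in parentheses. Black ticks are list medians, the gray band is less than 2-fold, the dashed line is the median of all 6810 genes (0.91), and open circles are bounds for genes with 0 UMIs in one library. Osiris, Tweedle and glycine-rich cuticular genes have the highest medians and actin and tubulin the lowest.

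Most ecdysone response genes were higher at 1LM. Of 11 genes of the receptor and its known response, 10 were compared. Of these, 8 were at least 2-fold higher and 0 lower, beside 47.5% and 5.33% of all genes, at a median of 1.405 beside 0.91. Of the 6 with 100 UMIs in both libraries 4 were higher, beside 977 of 3771 genes. Relative to the median gene, 4 of the 10 were higher and 0 lower, beside 26.9% and 20.1% of all genes. Hr3, an orphan nuclear receptor induced by ecdysone, was at 11.3 CPM at E8D, 3.72 CPM at 1L1D and 458 CPM at 1LM (log2 ratio 5.34, interval 5.01 to 5.68), and a UMI was found in 1.37% and 34.8% of thinned cells. Ftz-f1, which follows Hr3 as the hormone declines, was at 8.87 and 144 CPM (log2 ratio 4.02, interval 3.65 to 4.41). Br-c, the broad-complex early gene, was at 229.9 CPM at E8D, 24.7 CPM at 1L1D and 1269 CPM at 1LM (log2 ratio 2.47, interval 2.39 to 2.54), and so was higher at both non-feeding stages than at 1L1D. E75, another early gene, was within 2-fold at 105 and 179 CPM (log2 ratio 0.77, interval 0.65 to 0.895), and below the median gene. USP, the partner of the ecdysone receptor, had a ratio of 1.07 (interval 0.71 to 1.46). LOC692364 (FTZ-F1 beta) was at 77.9 and 74.004 CPM (log2 ratio -0.07, interval -0.23 to 0.08).

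Juvenile hormone acts in larvae to keep a molt larval. Genes of this hormone were low in these tables, and 3 of 11 were compared. Jheh2, an epoxide hydrolase that degrades the hormone, was at 113 CPM at E8D, 42.1 CPM at 1L1D and 9.22 CPM at 1LM (log2 ratio -3.61, interval -3.901 to -3.33). Cjhbp, its cytosolic binding protein, was at 61.9 and 19.97 CPM (log2 ratio -1.63, interval -1.86 to -1.41). Kr-h1, the transcription factor induced by the hormone, was at 44.8 and 54.5 CPM (log2 ratio 0.28, interval 0.09 to 0.48), within 2-fold in CPM.

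Of 4 transcription factors of the SG compared, 3 were at least 2-fold higher at 1LM and 0 lower, beside 47.5% and 5.33% of all genes. Among the 4, 2 passed through 1LM only. SGF1, the fork head factor that binds silk gene promoters, was at 137 CPM at E8D, 58.5 CPM at 1L1D and 449 CPM at 1LM (log2 ratio 1.71, interval 1.61 to 1.81). The bHLH factor sage was at 366 and 468 CPM (log2 ratio 0.35, interval 0.29 to 0.42). The LIM-homeodomain factor Awh, active on fibroin genes in the PSG, was at 7.12 and 18.6 CPM (log2 ratio 1.38, interval 0.94 to 1.86), and dimm, a bHLH factor of secretory cells in Drosophila, at 14.2 and 78.2 CPM (log2 ratio 2.46, interval 2.16 to 2.77). Relative to the median gene, dimm alone of the 4 was at least 2-fold higher, beside 26.9% of all genes.

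Lysosomal genes were at least 2-fold higher at 1LM in 4 of 4 compared. All 4 passed the UMI minimum in both libraries, where 977 of 3771 genes were higher. Relative to the median gene, 3 of the 4 were higher. Cathepsin B (LOC692390), a cysteine protease, had one of the 10 largest gains in CPM, from 95.95 CPM at E8D and 396 CPM at 1L1D to 4418 CPM at 1LM (log2 ratio 5.52, interval 5.41 to 5.64), with a UMI in 7.46% and 91.6% of thinned cells. Fibroinase (Bcp), a cathepsin L-like protease that digests fibroin, was at 133 and 1009 CPM (log2 ratio 2.93, interval 2.83 to 3.02). The saposin-related gene Sap-r was at 59.3 and 406 CPM (log2 ratio 2.77, interval 2.63 to 2.92) and cathepsin D (CatD) at 35.04 and 122 CPM (log2 ratio 1.8001, interval 1.604 to 2.002).

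Serpins, a family of protease inhibitors, were compared for 14 of 31 members. Of these, 10 were higher and 0 lower, but 9 passed through 1LM only, and of the 5 with 100 UMIs in both libraries 1 was higher. Serpin-18, known in B. mori to inhibit cysteine proteases, had 2, 3328 and 9482 UMIs in stage order (log2 ratio 11.28, interval 9.43 to 14.33 for 1LM over E8D). LOC100272001 (serine protease inhibitor 27) had 0 UMIs at E8D and at 1L1D and 6906 at 1LM, at least 1207-fold higher. Serpin-22 had 0, 477 and 2177 UMIs. Other members were within 2-fold, such as serpin-2 at 52.05 and 41.2 CPM (log2 ratio -0.34, interval -0.53 to -0.14). Among 10 other protease inhibitors compared, 6 were higher and 2 lower, of which 3 and 1 among the 6 with 100 UMIs in both libraries, and LOC101738162 (fungal protease inhibitor F-like) was at 549 CPM at E8D, 1532 CPM at 1L1D and 64.2 CPM at 1LM (log2 ratio -3.098, interval -3.21 to -2.99).

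The 10 largest gains in CPM held FIBH, Ser2, Fib-l, cathepsin B, the ribosomal protein gene RpLP2 and 5 genes known here only by their annotation. The largest gain was that of the long non-coding RNA LOC101737054, at 6600.1 CPM at E8D, 24029.5 CPM at 1L1D and 21611 CPM at 1LM (log2 ratio 1.71, interval 1.697 to 1.73). LOC110385036 (uncharacterized) was at 166 and 6302 CPM (log2 ratio 5.24, interval 5.16 to 5.33). LOC101745505, annotated as trichohyalin-like, was at 519 and 7484 CPM (log2 ratio 3.85, interval 3.801 to 3.897), and LOC101744736, annotated as clathrin coat assembly protein AP180, at 316 and 4755 CPM (log2 ratio 3.91, interval 3.85 to 3.97). LOC105842464 is seroin-like, and seroins are small silk proteins with antimicrobial activity. It was at 1382 CPM at E8D and 5159 CPM at 1LM (log2 ratio 1.9003, interval 1.87 to 1.93).

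Genes of sugar supply differed by member. Trehalose is the blood sugar of insects, which cells take up through Tret1 transporters and split with trehalase. Of 14 trehalose genes compared, 11 were higher and 3 lower at 1LM (median 3.85), with 10 compared through 1LM only. LOC105841947, a Tret1, was at 363 CPM at E8D, 903 CPM at 1L1D and 5.34 CPM at 1LM (log2 ratio -6.09, interval -6.45 to -5.75). Another Tret1, LOC101746387, had 3 UMIs at E8D and 1413 at 1LM (log2 ratio 7.95, interval 6.398 to 10.23), and LOC101746523 had 10 and 2032 (log2 ratio 6.74, interval 5.85 to 7.798). Trehalase LOC693027 was at 212 CPM at E8D and 4.04 CPM at 1LM (log2 ratio -5.72, interval -6.14 to -5.32). Of 4 glycolytic genes, pyruvate kinase (LOC101737082, -1.599) and enolase (LOC100037426, -1.46) were lower in log2 ratio and aldolase (LOC101743550, 4.77, from 8 UMIs at E8D) was higher.

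The cyclin-dependent kinase inhibitor LOC101744399 (1C-like), of the family that stops the cell cycle, was at 1657 CPM at E8D, 1396 CPM at 1L1D and 71.4 CPM at 1LM (log2 ratio -4.54, interval -4.63 to -4.44). It was the only one lower of 9 cell cycle and replication genes compared, of which 3 were higher. Cyclin A (Cyca) was at 4.36 and 14.6 CPM (log2 ratio 1.75, interval 1.19 to 2.35) and geminin (BmGEMININ), an inhibitor of replication licensing, at 6.98 and 8.31 CPM (log2 ratio 0.25, interval -0.25 to 0.77). At E8D, 65.5% of the UMIs of LOC101744399 were in the 5% deepest cells.

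Mitochondrial RNA was lower at 1LM. The genes of the mitochondrial genome took 8.62% of UMIs at E8D and 3.91% at 1LM, a share that the limit of 30% per cell capped, since 278 E8D and 7 1LM barcodes were over it. Of 12 genes compared, 10 were at least 2-fold lower and 0 higher (median -1.47), from ND1 at 1169 and 182 CPM (log2 ratio -2.68, interval -2.75 to -2.62) to COX1 at 28824 and 22638 CPM (log2 ratio -0.35, interval -0.36 to -0.34). In TMM-scaled ratios, which were lower by 0.82, they keep this direction. The nuclear genes of the respiratory chain differed less, with 0 of 33 higher and 2 lower (median -0.32), although 23 were lower relative to the median gene. One of the 2 is LOC110386648, annotated as cytochrome c oxidase subunit 3-like, at 11317 and 3512 CPM (log2 ratio -1.69, interval -1.705 to -1.67). That subunit is normally encoded by the mitochondrial genome, where COX3 had 922 and 301 CPM (log2 ratio -1.62, interval -1.67 to -1.56), and counts of near-identical copies may be shared between them. It was spread over cells like the mitochondrial genes, with 7.84% of its E8D UMIs in the 5% deepest cells, beside 8.56% for COX3 and 37.9% for the nuclear subunit Va (LOC100134927).

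Ribosomal protein genes were level in CPM. Of 77 compared, 0 were higher and 1 was lower at 1LM (median -0.01), their sum was 23.1% of UMIs at E8D and 23.9% at 1LM, and relative to the median gene 31 of them were lower. The exception was RpL7Ae, at 491 and 233 CPM (log2 ratio -1.07, interval -1.15 to -1.004). Actin and tubulin genes, which form the cytoskeleton, were lower in 5 of 6 compared (median -1.75), and all 6 had 100 UMIs in both libraries. Alpha-tubulin Tua1 was at 3766 and 968 CPM (log2 ratio -1.96, interval -1.99 to -1.93), and the cytoplasmic actin LOC101741610 at 639 and 83.1 CPM (log2 ratio -2.94, interval -3.04 to -2.85). Beta-tubulin Tub2 was the sixth, at 429 and 451 CPM (log2 ratio 0.07, interval 0.01 to 0.14).

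The study's leading markers of its 10 SG cell types split by type, which is a description, since the study chose them on these libraries. Markers of the ASG type ECR were higher in 5 of 5 (median 7.13), as were those of the PSG types DRR (10.24) and FPC (6.14) and the ASG type CM (5.21). Those of the MSG type ERSS were lower in 5 of 5 (-9.75) and of the ASG type LSF in 4 of 5 (-5.703). Of the rest, FPS markers were lower in 3 of 4, SPC markers higher in 4 of 5, SPS markers higher in 3 and lower in 2 of 5, and no marker of TR reached 100 UMIs. The filter fixed most of these directions, since all compared markers of ECR, DRR, FPC, CM and SPC passed through 1LM only, and 4 of 5 of ERSS and 4 of 5 of LSF through E8D only. For ERSS the RNA at E8D was spread over shallow cells. The deepest 5% of E8D cells held 6.27% of the UMIs of LOC101740733, 5.45% of LOC101743112 and 7.75% of LOC105842474, beside 34.3% of all UMIs. For the 5 LSF markers this share ranged from 40.6% for LOC101736292 to 63.4% for LOC105841947.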

How the data were processed

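The deposited tables hold whole UMI counts per gene and barcode, not normalized, which the authors obtained by Cell Ranger 3.1.0 (STAR) against ASM15162v1. Depth per cell was 500 to 24102 UMIs at E8D and 816 to 9741 at 1LM. Each library was filtered on 2 limits, at most 30% mitochondrial UMIs (13 genes) and a UMI-to-gene ratio within 2 SD of the mean. No doublet caller or clustering was run. Counts were summed per gene and library and divided by the library total (CPM). Ratios have exact binomial 95% intervals. A gene with 0 UMIs in one library has a bound computed with 3 counts per library, and none was formed where both counts were 3 or fewer. Ranks, list medians and plots use 3 counts in place of any smaller count, while ratios printed for 1 to 3 UMIs are as observed. Genes with 100 UMIs in one library were compared and counted from 2-fold on. With 1 library per stage no test was made.

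Named genes were the 15 highest and 15 lowest ratios, the 10 largest gains and losses in CPM, all members of lists with at most 6 genes compared and otherwise the 3 highest and 3 lowest, silk and mitochondrial genes, and the 3 genes just above and just below 100 UMIs. Rule, members and lists were chosen with earlier results of these data known. Names came from the study's supplementary tables, held in part, which described 2147 of the 6810 genes. Alternatives covered scaling (edgeR 4.0.16, DESeq2 1.42.0), cell weighting, filters and limits. Python 3.11.15, NumPy 2.4.6, SciPy 1.17.1, pandas 2.3.3, matplotlib 3.10.9 and R 4.3.3 were used, and the procedure was tested on simulated data.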

Additional observations from a re-analysis of the deposited data

Results flagged for a closer look

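The barcodes removed by the quality limits held much RNA. They held 45.3% of the deposited UMIs at E8D and 20.9% at 1LM, which no comparison above used. At E8D, 196 barcodes over the limit on the ratio of UMIs to genes held 5518918 UMIs, at a median of 23112 UMIs per barcode, and at 1LM 381 such barcodes held 3448125 UMIs, at a median of 8019. In these barcodes the silk genes made up 0.2596% of UMIs at E8D and 2.62% at 1LM. LOC101745332, LOC101745133 and LOC101745164 led the removed E8D barcodes, with 17.7%, 9.04% and 3.98% of their UMIs, and LOC101737054 led those of 1LM, with 7.57%. With all deposited barcodes, 3241 genes were higher and 392 lower at 1LM, at a median of 0.87.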

How the results depend on the processing

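No called ratio among 283 named genes changed direction under the 10 settings that rescaled counts or chose other cells, and between 241 and 283 kept their call. Settings that only rescaled counts moved every log2 ratio by the same amount, such as -0.82 with TMM and -0.87 with DESeq2 factors. These shifts were smaller than the 2-fold limit, so no called ratio could turn under them. Only the settings that weighted or chose cells otherwise could turn one. Counts of genes higher and lower at 1LM and the median log2 ratio depended on scaling: they were 1951, 1219 and 0.091 with TMM factors, 1883, 1300 and 0.0402 with DESeq2 size factors, and 1829 and 1369 relative to the median gene. Without LOC101745332, LOC101745133 and LOC101745164 in the total, 638 genes were lower and the median was 0.53. The median was 1.099 as a mean over cells and 1.09 without the 5% deepest cells. The gene filter set the counts: 5116, 610 and a median of 1.07 with 10 UMIs in one library, 5116 and 689 with no filter, 892 and 106 with 1000 UMIs, a median of 0.69 with 10 UMIs in both, and 977 higher, a median of 0.32 and 16 of the 41 lists left with a median of at least 2-fold with 100 UMIs in both. With 4-fold as the limit, 1730 genes were higher and 128 lower. The main count of such lists was 34 of 50. The medians of some lists turned, where the filter changed which members were left: juvenile hormone to 0.68 with 10 UMIs in one library and 0.28 with no filter; RR-1 to -1.85, glycine-rich cuticular proteins to -1.86 and cuticle tanning to -1.27 with 10 UMIs in both; RR-1 to -1.53, glycine-rich to -3.23, tanning to -1.27, autophagy to -0.73 and the study's SPS markers to -1.48 with 100 in both; and autophagy to -0.73 with 1000 UMIs. The settings without 3 dominant genes, relative to the median gene and with 100 UMIs in both libraries were chosen after seeing the data. No paired analysis was possible because each stage was 1 library, and no replicate could be left out. At this depth, 3 UMIs, the count put in place of smaller ones, were 0.436 CPM at E8D and 0.229 CPM at 1LM. A single UMI was 0.145 CPM at E8D and 0.0762 CPM at 1LM.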

Other observations

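Most genes of cell adhesion that were compared were higher at 1LM. Of 26 members, 18 were compared, of which 16 were at least 2-fold higher and 0 lower, at a median of 3.48 beside 0.91 for all genes. Of the 6 with 100 UMIs in both libraries, 4 were higher. Cadherin-99C (LOC101741348), a cadherin of epithelial microvilli in Drosophila, was at 1.599 and 72.9 CPM (log2 ratio 5.51, interval 4.67 to 6.52), and the flamingo homolog LOC101745884, a planar polarity cadherin, at 1.02 and 35.7 CPM (log2 ratio 5.13, interval 4.08 to 6.46). The β-catenin homolog armadillo (LOC101744450), which links cadherins to actin, was within 2-fold in CPM (log2 ratio 0.66, interval 0.54 to 0.79). All 4 chemosensory proteins compared, small secreted carriers of hydrophobic ligands, were higher through 1LM only, CSP16 from 37 to 3629 UMIs (log2 ratio 5.68, interval 5.22 to 6.19).

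Detoxification enzymes are large families of which few members were compared. Of 12 glutathione S-transferases compared 4 were higher and 1 lower, and of the 6 with 100 UMIs in both libraries 0 were higher or lower, with GSTd1 at 3.93 and 189.5 CPM (log2 ratio 5.59, interval 5.05 to 6.198) and GSTe3 at 110.3 and 2.59 CPM (log2 ratio -5.41, interval -5.95 to -4.92). Of 7 UDP-glycosyltransferases 4 were higher and 2 lower, where 4 passed through 1LM only and 2 through E8D only, and UGT41A2 was at 60.04 CPM at E8D, 394 CPM at 1L1D and 2.74 CPM at 1LM (log2 ratio -4.45, interval -4.99 to -3.96). Of 7 cytochromes P450 5 were higher and 1 lower, with 3 through 1LM only. Cyp18a1, the enzyme that inactivates ecdysteroids, had 4 UMIs at E8D and 289 at 1LM (log2 ratio 5.24, interval 3.87 to 7.13).

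Chaperones help proteins fold, and they were counted for the cytosol and the secretory pathway. Of 13 cytosolic chaperones 9 were higher and 0 lower (median 1.45), beside 47.5% and 5.33% of all genes. Relative to the median gene 5 were higher and 1 lower, beside 26.9% and 20.1%. Hsp20.8 was at 164 and 1028 CPM (log2 ratio 2.65, interval 2.56 to 2.74). Of its 1LM UMIs, 33.8% were in the 5% deepest cells, which held 14.7% of all UMIs. Of 15 genes of endoplasmic reticulum folding and translocation 4 were higher and 0 lower (median 0.103), and 2 were higher and 5 lower relative to the median gene. The coatomer (7 genes, median 0.01) and the vacuolar ATPase (11 genes, median 0.3002) had no member past 2-fold in CPM. Of 7 genes of the insulin and TOR pathway 4 were higher and 0 lower, a share near the 47.5% of all genes, with the insulin receptor InR at 22.7 and 97.6 CPM (log2 ratio 2.11, interval 1.87 to 2.36). Of 8 autophagy genes 5 were higher, but 6 of the 8 passed through 1LM only and 1 through E8D only. The only one with 100 UMIs in both libraries, Atg8, was at 2166 and 1308 CPM (log2 ratio -0.73, interval -0.76 to -0.696).

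The 93 long non-coding RNAs compared took 9.37% of UMIs at E8D and 2.896% at 1LM. Of these, 57 were higher and 9 lower (median 1.71), beside 47.5% and 5.33% of all genes. However, 56 passed through 1LM only, and of the 34 with 100 UMIs in both libraries 11 were higher and 6 lower. Single genes held most of the lncRNA UMIs in each library, so the totals mainly follow those genes. At E8D, LOC101745133 had 402285 and LOC101745164 had 173415 of 644716, and at 1LM LOC101737054 had 283556 of 379922. LOC110386547 was at 397 and 8.003 CPM (log2 ratio -5.63, interval -5.93 to -5.35). Of the muscle markers 1 of 2 compared was higher and of the neuron markers 2 of 3, beside 47.5% of all genes. Kettin (Kettin), a muscle protein, had 42 UMIs at E8D and 1089 at 1LM (log2 ratio 3.76, interval 3.32 to 4.25), while tropomyosin (LOC100101174) was at 37.2 and 55.3 CPM (log2 ratio 0.57, interval 0.36 to 0.78), below the median gene. The neuronal SNAP-25 (LOC101739206) had 112 and 740 UMIs (log2 ratio 1.79, interval 1.504 to 2.09), while Elav, an RNA-binding protein of neurons, was at 23.6 and 28.4 CPM (log2 ratio 0.27, interval 0.002 to 0.55). Of the 4 fat body and haemolymph markers compared, 2 were higher and 2 lower, with log2 ratios up to 2.24. The lowest was the haemolymph 30 kDa lipoprotein LOC101735732, at 668 and 44.9 CPM (log2 ratio -3.895, interval -4.02 to -3.77). Carotenoid-binding protein (Cbp) was higher, at 12.8 and 38.2 CPM (log2 ratio 1.58, interval 1.25 to 1.92). The part of cells of other tissues in the results was not tested.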
